A study of Homo sapiens with 4 samples.

Results

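The lysosome and autophagy genes are 42 genes taken by symbol from a given list, of 19610 gene symbols in the mRNA table. They encode cathepsins, other lysosomal hydrolases, lysosomal membrane proteins, proton pump subunits, the transcription factors TFEB and TFE3, and proteins of the autophagosome. Their levels were measured in hFOB1.19 cells, a clonal human fetal osteoblast line that divides at a permissive temperature through a temperature-sensitive SV40 large T antigen and differentiates when the temperature is raised. Total RNA was sequenced from control cells before induction (day 0) and from mineralizing cells on days 3, 6 and 9 of differentiation, with 1 library per day and 4 in all. No difference between days therefore has a replicate check, and no test was made. All cells carried the same temperature-sensitive antigen. The later days also differed from day 0 in temperature, so that time, differentiation, temperature, antigen activity and cell division cannot be told apart. The authors deposited FPKM, fragment counts scaled by transcript length and by library size, for each of 212 transcripts of these genes. They were summed per gene here. FPKM are scaled by length, so levels can be set side by side between genes, but they hold no read counts, the depth behind a value is unknown and no counting interval can be given.

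Lysosomes are acidic organelles in which hydrolases break down proteins, glycans and lipids that arrive by endocytosis or by autophagy. In autophagy, cytoplasm is enclosed in a membrane that carries lipid-linked LC3 and GABARAP proteins, and the autophagosome then fuses with the lysosome. TFEB and TFE3 activate many of these genes through E-box sequences in their promoters. Bone cells use lysosomal enzymes on matrix as well, cathepsin K of the osteoclast being the best known.

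The osteoblast markers read out the cells as follows. COL1A2, a chain of type I collagen, had 125 FPKM on day 0 and 856, 753 and 561 FPKM on days 3, 6 and 9. ALPL, the alkaline phosphatase of mineralizing cells, had 0.294, 4.32, 4.35 and 4.18 FPKM. SPP1, osteopontin, had 0.794, 1.89, 5.14 and 7.45 FPKM. The osteoblast markers BGLAP, SP7 and IBSP stayed under 1 FPKM in all 4 libraries, and 6 of the 9 osteoblast markers reached 1 FPKM in any library. Of these 6, 4, 5 and 4 were 2-fold higher than day 0 on days 3, 6 and 9, and none was lower. Of 11 osteoclast and macrophage markers, 3 reached 1 FPKM in any library, of which 1, 1 and 2 were 2-fold higher and none was 2-fold lower on days 3, 6 and 9. Of all genes that reached 1 FPKM, 8.13%, 9.01% and 9.60% were 2-fold higher on these days. The summed level of the 11 was 2.64, 6.83, 6.85 and 8.82 FPKM from day 0 to day 9. CALCR, DCSTAMP and CD163 were listed at 0 in every library, while ACP5, the tartrate-resistant acid phosphatase, itself a lysosomal enzyme, had 0.766, 4.11, 3.47 and 5.57 FPKM and OSCAR had 0.345, 0.926, 1.5 and 1.85 FPKM. CD14, the third marker that reached 1 FPKM, had its highest value on day 0, with 1.07, 0.398, 0.632 and 0.428 FPKM. The part of these markers in the results below was not tested.

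Differences between libraries are given as log2 ratios of FPKM + 1. Adding 1 makes ratios smaller where FPKM are low. A gene is called 2-fold higher or lower at a log2 ratio of at least 1 or at most -1, if it reached 1 FPKM in any library. All 42 members reached it, as did 12859 genes of the table. On day 3, 6 members (14.3%) were 2-fold higher than on day 0, against 8.13% of all genes tested. On day 6 there were 7 (16.7%) against 9.01%, and on day 9 there were 9 (21.4%) against 9.60%. None of the 42 was 2-fold lower on any day, where 5.30%, 6.42% and 6.52% of all genes were on days 3, 6 and 9. At a 1.5-fold limit, 8, 12 and 15 members were higher on days 3, 6 and 9, where 17.4%, 18.0% and 18.1% of all genes were, and 3 were lower on each day, where 18.5%, 20.1% and 20.4% of all genes were. As shares of the 42, these are 19.0%, 28.6% and 35.7% higher and 7.14% lower. The median log2 ratio of the members was 0.13, 0.25 and 0.41, and that of all genes was -0.08, -0.08 and -0.09. As all 3 comparisons share the day 0 library, they are set side by side and are not independent of each other. In bulk RNA, a change in the share of cells that express a gene and a change in RNA per cell cannot be told apart.

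**Figure D1:**
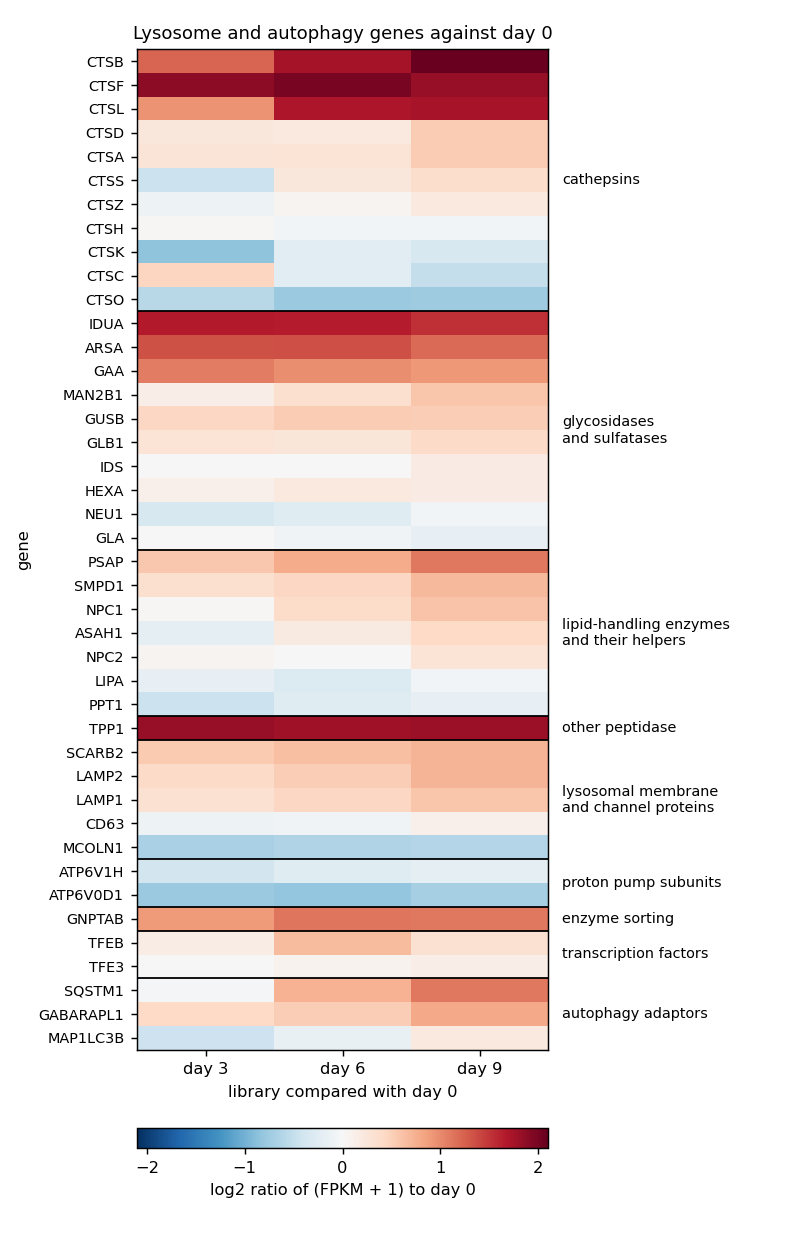
Colour gives the log2 ratio of FPKM + 1 to day 0 for each of the 42 genes (rows, grouped by role) in the day 3, day 6 and day 9 libraries (columns, 1 library each). CTSB, CTSF, CTSL, IDUA, ARSA and TPP1 stand out in red, while ATP6V0D1, MCOLN1 and CTSO are blue on all 3 days, within the 2-fold limit.

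Together the 42 genes held 2372 FPKM on day 0 and 2904, 3361 and 3899 FPKM on days 3, 6 and 9. As a share of the FPKM of all mRNAs, this was 0.384%, 0.540%, 0.616% and 0.684%. That total was itself about 617860, 538070, 545950 and 569920 FPKM, so the share also moved with it. A few abundant genes weigh most in the sum. CD63, the most abundant member on day 0, had 439 FPKM on day 0 and 471 FPKM on day 9. CTSB, SQSTM1, PSAP and CTSL were 2-fold higher on day 9. These 4 genes had 142, 231, 219 and 51.9 FPKM on day 0 and 603, 496, 474 and 174 FPKM on day 9. On day 9, 11 of the 42 genes were below day 0, as were 7088 of the 12859 genes tested. Above day 0 were 73.8% of the 42 and 44.8% of all genes. The highest level of a gene fell on day 9 for 22 of the 42 (52.4%), against 22.4% of all genes tested, and on day 0 for 9 of the 42 (21.4%), against 46.0% of all genes. Each later library was above the one before it for 12 of the 42 (28.6%) and 11.9% of all genes. All 3 later libraries were above day 0 for 25 of the 42 (59.5%) and 36.1% of all genes.

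E-box sequences were searched for because they are the sites that TFEB and TFE3 recognise. Many of these genes are already known to carry such sites, so a higher share among the members is not a new result. The letters CACGTG, which read the same on both strands, were looked for in the 250 bases before each start in RefSeq promoters of build GRCh38.p14. They occurred in 6.34% of 35116 windows and in at least 1 window of 7.73% of 27305 genes. Of the members, 32 were matched by symbol to 47 windows, of which 9 (19.1%) held the letters, each in a different gene (28.1% of the 32). CTSB, CTSK, CTSO, CTSS, HEXA, ARSA, PSAP, ASAH1, LAMP2 and ATP6V1H had no entry. The longer form TCACGTGA, which contains the E-box, was in 0.854% of windows and 1.04% of genes, and in 5 of the 47 windows (10.6%) and 32 genes (15.6%): LAMP1, ATP6V0D1, GAA, MCOLN1 and CTSA. The stretches that hold all copies in these 9 genes are printed 5′ to 3′ on the strand of the gene, with each CACGTG in capitals.
LAMP1: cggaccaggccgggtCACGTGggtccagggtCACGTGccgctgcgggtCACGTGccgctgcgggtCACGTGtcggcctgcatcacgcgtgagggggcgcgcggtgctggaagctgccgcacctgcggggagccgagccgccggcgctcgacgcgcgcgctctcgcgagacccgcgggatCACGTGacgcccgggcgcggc
GAA: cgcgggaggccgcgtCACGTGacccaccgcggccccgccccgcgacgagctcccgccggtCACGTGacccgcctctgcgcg
MCOLN1: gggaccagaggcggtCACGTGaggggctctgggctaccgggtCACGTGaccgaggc
CTSA: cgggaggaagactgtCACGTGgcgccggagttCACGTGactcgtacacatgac
ATP6V0D1: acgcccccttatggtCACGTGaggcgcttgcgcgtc
CTSF: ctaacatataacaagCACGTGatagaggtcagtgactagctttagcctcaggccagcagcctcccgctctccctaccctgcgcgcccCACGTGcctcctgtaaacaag
CTSD: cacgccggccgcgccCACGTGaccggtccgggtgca
CD63: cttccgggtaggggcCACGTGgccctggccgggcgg
NEU1: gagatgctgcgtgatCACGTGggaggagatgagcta

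In build GRCh38.p14 these stretches lie at chr13:113297032-113297231 for LAMP1, chr17:80101490-80101570 for GAA, chr19:7522568-7522623 for MCOLN1 and chr20:45891278-45891330 for CTSA, all on the plus strand. On the minus strand are those of ATP6V0D1 at chr16:67481196-67481231, CTSF at chr11:66568637-66568744, CTSD at chr11:1763954-1763989, CD63 at chr12:55729169-55729204 and NEU1 at chr6:31862927-31862962. LAMP1 held 5 copies between 192 and 23 bases before its start, of which the 4 farther ones stand close together. GAA, MCOLN1, CTSA and CTSF held 2 each. Among the 9, the log2 ratio to day 0 on day 9 went from -0.70 for ATP6V0D1 to 1.83 for CTSF, with a median of 0.53, and the 23 other genes with a window had a median of 0.40. On day 3 the medians were 0.23 and 0.14, and on day 6 they were 0.21 and 0.34. On days 3, 6 and 9, 2, 1 and 1 of the 9 were 2-fold higher, and 2, 4 and 5 of the 23. Of all genes tested it was 8.13%, 9.01% and 9.60%. A match is a description of the letters and does not show binding.

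Among the 11 cathepsins, most of which are cysteine proteases of the papain family, CTSB, CTSL and CTSF were 2-fold higher than day 0 on at least 2 later days. Cathepsin B (CTSB, ENSG00000164733), an endo- and exopeptidase, had 142, 332, 479 and 603 FPKM from day 0 to day 9. Each library stood above the one before it, and the log2 ratio to day 0 was 1.22, 1.75 and 2.08, the largest of all 42 members on day 9. CTSB was the fourth most abundant member on day 0 and the most abundant on day 9. Cathepsin L (CTSL, ENSG00000135047), an endopeptidase, had 51.9, 101, 171 and 174 FPKM, with log2 ratios of 0.95, 1.70 and 1.73. Its level on day 3 lay just short of the 2-fold limit and the day 6 and day 9 levels were close to each other. CTSV, the closest relative of CTSL and no member, had 2.74, 8.46, 6.48 and 6.48 FPKM, and reads could have been split between the pair. Of the 4 cathepsins outside the 42 genes it alone reached 1 FPKM, 2-fold higher on day 3 (log2 ratio 1.34) and just under the limit on days 6 and 9. Cathepsin F (CTSF, ENSG00000174080), a less abundant protease of the same family, had 3.14 FPKM on day 0 and 14.2, 15.5 and 13.8 FPKM later. Its log2 ratios of 1.88, 1.99 and 1.83 were thus in place by day 3, unlike the stepwise course of CTSB.

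**Figure D2:**
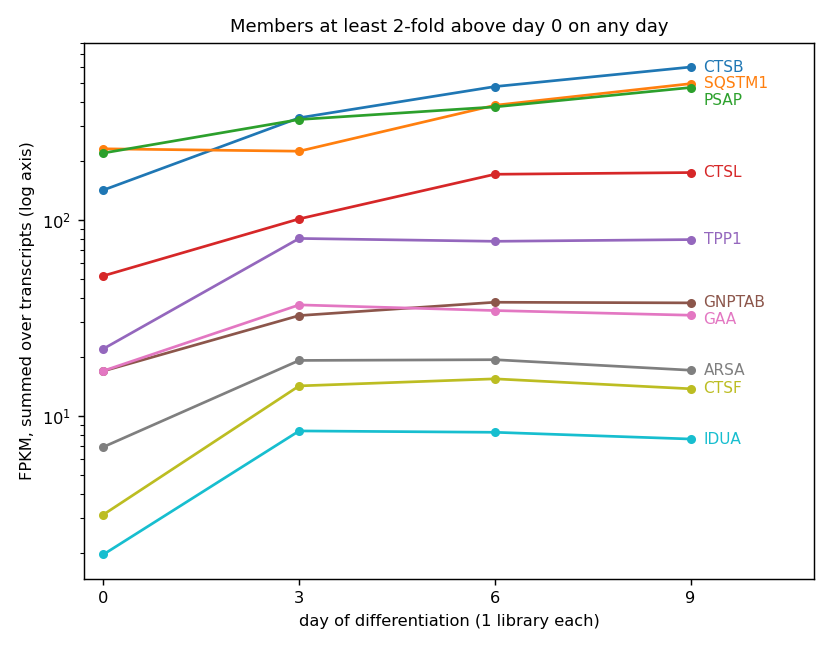
FPKM summed over transcripts (log axis) on each day, 1 library per day, for the 10 members that were at least 2-fold above day 0 on any day. CTSB goes from 142 to 603 FPKM in steps, TPP1 from 22.0 to 80.4 FPKM by day 3 with little further change, and SQSTM1 has 231 and 224 FPKM on days 0 and 3 and 496 on day 9.

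The remaining cathepsins stayed within 2-fold of day 0. Cathepsin D (CTSD), the aspartic protease of the lysosome, had 87.0, 102, 101 and 127 FPKM, and CTSA, a serine carboxypeptidase that also protects neuraminidase and beta-galactosidase, had 51.1, 61.8, 62.5 and 74.4 FPKM. Cathepsin Z (CTSZ), a carboxypeptidase, had 107, 99.4, 111 and 123 FPKM. These 3 genes had their highest value on day 9, at log2 ratios of 0.20 to 0.54. Cathepsin C (CTSC), which activates granule serine proteases in immune cells, took another course, with 107, 146, 91.5 and 75.6 FPKM. Its log2 ratio to day 0 was 0.44, -0.23 and -0.50, so that day 3 was its highest library and day 9 its lowest. CTSO, a less studied cysteine protease, had 4.05, 2.39, 1.95 and 2.0 FPKM, and its ratios of -0.57, -0.77 and -0.75 were the lowest of the cathepsins on days 6 and 9. CTSK, the collagen-degrading cathepsin of osteoclasts, had 2.92, 1.19, 2.34 and 2.1 FPKM, and CTSS, the cathepsin of antigen-presenting cells, had 1.10, 0.538, 1.48 and 1.71 FPKM. CTSH, an aminopeptidase, had 4.35, 4.42, 4.15 and 4.15 FPKM. The last 4 were the least abundant members, with means under 5 FPKM, where a small difference in FPKM moves the ratio most. In sum, the 11 cathepsins held 562, 866, 1041 and 1201 FPKM, and on day 9 about as much lay in CTSB alone as in the other 10 together.

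Of the 10 glycosidases and sulfatases, which strip sugars and sulfate groups from glycans and glycolipids, IDUA, ARSA and GAA were 2-fold higher on day 3. Alpha-L-iduronidase (IDUA, ENSG00000127415), which acts on heparan and dermatan sulfate, had 1.96 FPKM on day 0 and 8.38, 8.25 and 7.62 FPKM later, at log2 ratios of 1.66, 1.64 and 1.54. SLC26A1, which overlaps IDUA on the opposite strand, had 1.39, 1.83, 2.04 and 2.08 FPKM, and whether reads were assigned by strand is not given in the sources used here. Arylsulfatase A (ARSA, ENSG00000100299), which acts on sulfatide, had 6.95, 19.2, 19.4 and 17.1 FPKM, at ratios of 1.35, 1.36 and 1.19. Acid alpha-glucosidase (GAA, ENSG00000171298), which degrades glycogen, had 17.0, 36.9, 34.5 and 32.6 FPKM. Its ratio was 1.07 on day 3 and lay just outside the limit on days 6 and 9, at 0.98 and 0.90. All 3 enzymes reached their later level by day 3 and were somewhat lower on day 9 than on day 3.

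The other 7 enzymes of this group lay between log2 ratios of -0.33 and 0.58 on all days. MAN2B1, the lysosomal alpha-mannosidase, had 19.8, 22.0, 25.4 and 30.2 FPKM, and GUSB, beta-glucuronidase, had 23.4, 32.0, 34.1 and 34.0 FPKM. GLB1, the beta-galactosidase whose activity is stained as a sign of senescence, had 26.2, 32.1, 31.4 and 34.9 FPKM. HEXA, a subunit of beta-hexosaminidase and the most abundant of the group by mean level, had 39.2, 42.5, 45.1 and 44.4 FPKM. IDS, iduronate sulfatase, had between 18.8 and 21.5 FPKM, GLA, alpha-galactosidase A, between 8.39 and 9.64, and the neuraminidase NEU1 between 19.1 and 24.3. For these last 3 genes no day stood apart from day 0 by as much as 1.5-fold.

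The peptidase TPP1 (ENSG00000166340), which removes tripeptides from proteins in the lysosome, showed the clearest single step. It had 22.0 FPKM on day 0 and 80.4, 77.8 and 79.4 FPKM on days 3, 6 and 9, at log2 ratios of 1.82, 1.78 and 1.8. The 3 later libraries lie within 0.05 of each other on the log2 scale.

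Lipid breakdown in the lysosome needs hydrolases, the saposins that present lipids to them, and the NPC proteins that export cholesterol. Prosaposin (PSAP, ENSG00000197746), the precursor of the saposins, had 219, 325, 377 and 474 FPKM. It was higher in each library than in the one before and passed 2-fold on day 9, at a log2 ratio of 1.11 after 0.57 and 0.78. SMPD1, acid sphingomyelinase, had 15, 19.1, 20.6 and 24.6 FPKM, and NPC1, the membrane cholesterol transporter, had 24.2, 24.8, 31.9 and 37.1 FPKM, at day 9 ratios of 0.68 and 0.59. ASAH1, acid ceramidase, had 14.1, 12.2, 16.2 and 19.1 FPKM. NPC2, the soluble cholesterol carrier, had 130, 135, 130 and 159 FPKM. PPT1, a thioesterase that removes palmitate from proteins, had 49.1, 35.6, 41.1 and 43.4 FPKM and LIPA, acid lipase, 15.9, 14, 12.9 and 15.1, so both had their highest value on day 0. All 7 genes of this group were higher on day 9 than on day 6, by 0.08 to 0.33 on the log2 scale. This was not particular to the group, as 31 of the 42 members (73.8%) and 52.8% of all genes were higher too.

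Among the membrane proteins, LAMP1 and LAMP2, which line the lysosomal membrane, and SCARB2, which carries beta-glucocerebrosidase there, were higher on each later day than on the one before, within 2-fold of day 0. LAMP1 had 103, 128, 139 and 154 FPKM, and SCARB2 had 50.9, 75.3, 79.0 and 84.3 FPKM, at day 9 ratios of 0.58 and 0.72. CD63, a tetraspanin of late endosomes and exosomes and the most abundant member by mean level, had 439, 409, 418 and 471 FPKM and was within 0.10 of day 0 on the log2 scale in every library. MCOLN1, the calcium channel TRPML1, had 22.0 FPKM on day 0 and 13.4, 13.9 and 14 FPKM later. Its ratios of -0.68, -0.63 and -0.62 were past 1.5-fold on all 3 days, opposite in direction to LAMP1 and LAMP2.

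LAMP2 had 60.4, 80.0, 87.2 and 99.6 FPKM, but its annotated transcripts, which differ in the last exon and so in the membrane anchor and tail, did not move together. ENST00000371335 had 36.7, 28.0, 28.4 and 29.9 FPKM, which was 60.9% of the LAMP2 level on day 0 and 35.0%, 32.5% and 30.0%. ENST00000200639 had 20.3, 45.6, 52.3 and 64.0 FPKM, which was 33.6% on day 0 and then 57.0%, 60% and 64.2%. The leading transcript was thus a different one on day 0 than on the 3 later days. ENST00000434600 held between 5.56% and 7.96% in every library. Of the 36 members with several transcripts, 31 kept the same leading transcript in all 4 libraries, and the exceptions besides LAMP2 were CTSB, CTSC, CTSH and NPC2. In CTSC, ENST00000227266 had 52.3 FPKM (48.7%) on day 0 and 35.7, 27.9 and 23.4 FPKM later, while ENST00000528020 had 25.4 FPKM on day 0 and 64.3 on day 3. The day 3 peak of CTSC therefore lay in transcripts other than the one that led on day 0. Levels of overlapping transcripts are estimates that share reads, and their error is unknown here.

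**Figure D3:**
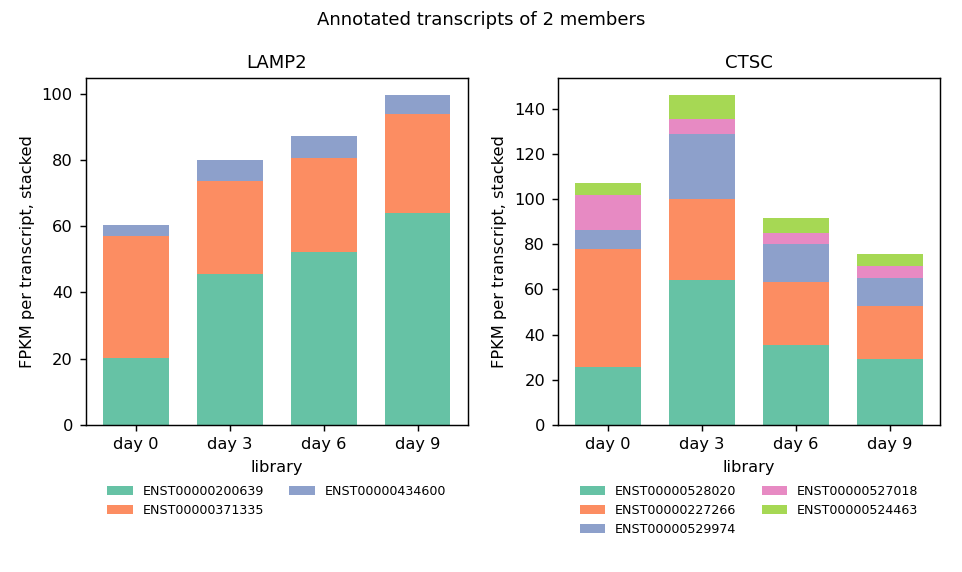
Bars show FPKM of each annotated transcript, stacked, in the 4 libraries (1 per day) for LAMP2 and CTSC. For LAMP2 the part of ENST00000200639 grows from 20.3 to 64.0 FPKM while that of ENST00000371335 goes from 36.7 to 29.9, and for CTSC the day 3 bar is the highest at 146 FPKM in all.

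The vacuolar proton pump acidifies the lysosome. Its members ATP6V0D1, a subunit of the membrane sector, and ATP6V1H, of the catalytic sector, were below day 0 in every later library. ATP6V0D1 had 48.5, 27.7, 27.2 and 29.4 FPKM at ratios of -0.78, -0.81 and -0.70, past 1.5-fold on all days, and ATP6V1H had 28.2, 21.3, 23.4 and 24.8 FPKM. GNPTAB (ENSG00000111670), whose product adds the mannose 6-phosphate tag that sends hydrolases to the lysosome, had 16.9, 32.5, 38.0 and 37.7 FPKM. With log2 ratios of 0.90, 1.12 and 1.11 it was 2-fold higher on days 6 and 9.

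TFE3 and TFEB, the transcription factors of the lysosomal gene network, showed no 2-fold difference on any day. TFE3 was the more abundant, with 31.4, 31.6, 32.9 and 34.5 FPKM. TFEB had 4.85, 5.54, 8.27 and 6.26 FPKM, with its highest value on day 6 at a log2 ratio of 0.67. Of that day 6 value, 33.4% was the transcript ENST00000425401, listed at 0, 0, 2.77 and 1.25 FPKM. The leading transcript ENST00000373033 was lower on day 6 than on day 3, at 3.05 and 3.76 FPKM. The mRNA levels of TFE3 and TFEB say nothing of where the proteins are in the cell, which is how these factors are mainly controlled.

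All 3 autophagy members were higher on day 6 than on day 3 and higher again on day 9. Of all genes, 49.6% and 52.8% had a ratio above 0 in these comparisons. The members differed on day 3, when 1 was above day 0 and 2 were below. SQSTM1 (ENSG00000161011), the p62 receptor that binds ubiquitinated cargo and LC3, had 231, 224, 385 and 496 FPKM. Its ratio to day 0 was -0.04, 0.74 and 1.10, so that the day 0 and day 3 libraries were alike and the difference came after day 3. GABARAPL1, a GABARAP protein, had 47.1, 63.0, 67.7 and 82.4 FPKM and a day 9 ratio of 0.79, the nearest member below the 2-fold limit apart from GAA. MAP1LC3B, the common LC3 marker of autophagosomes, had 51.6, 38.1, 46.4 and 59.4 FPKM, lowest on day 3. MAP1LC3B2, a near-identical copy with which it could share reads, was under 1 FPKM in every library.

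Day 6 against day 3 and day 9 against day 6 compare libraries at the same raised temperature. No member was 2-fold higher or lower in either, where 0.607% and 0.443% of all genes were higher and lower on day 6 than on day 3, and 0.381% and 0.163% on day 9 than on day 6. At 1.5-fold, 4 members were higher on day 6 than on day 3 against 2.32% of all genes: SQSTM1 (log2 ratio 0.78), CTSL (0.75), CTSS (0.69) and CTSK (0.61), the last pair at levels under 3 FPKM. CTSC (-0.67) was the 1 member that was 1.5-fold lower, against 2.17% of all genes. From day 6 to day 9 no member passed 1.5-fold in either direction, where 1.51% of all genes were higher and 1.38% lower. The shifts were small but mostly of 1 sign: 31 of the 42 members (73.8%) had a ratio above 0 on day 9 against day 6, compared with 52.8% of all genes, and the medians were 0.12 and 0.01. SQSTM1 (0.37), MAP1LC3B (0.35), CTSB (0.33), PSAP (0.33) and CTSD (0.33) stood highest there, and TFEB (-0.35) and CTSC (-0.27) lowest.

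**Figure D4:**
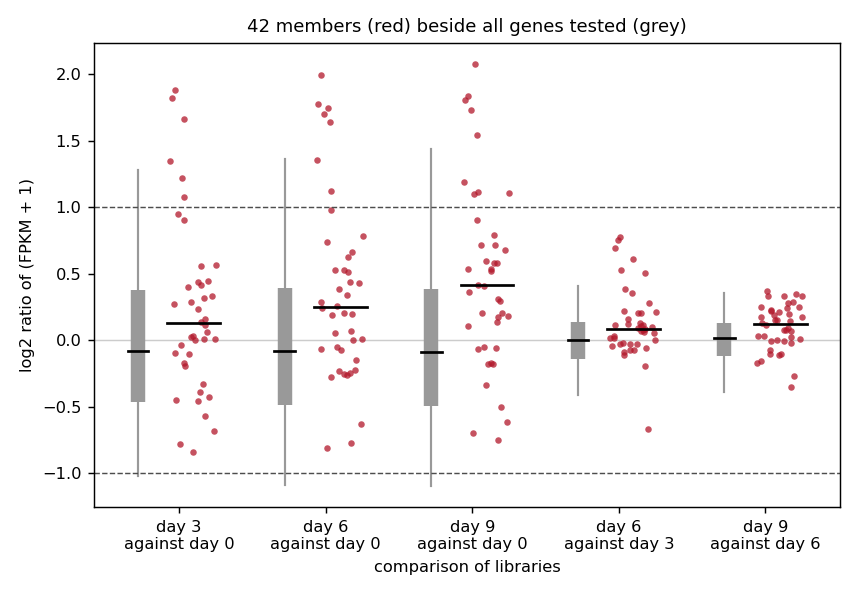
Each red point is 1 of the 42 members and its height the log2 ratio of FPKM + 1 in the named comparison of 2 libraries, with a black line at the members' median. The grey bar spans the lower to the upper quartile of the 12859 genes tested and the grey line their 5th to 95th percentile, and dashed lines mark 2-fold. The members' median lies above that of all genes in each comparison, by the most on day 9 against day 0 (0.41 against -0.09).

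The other genes of the pathway were taken from lists of known function. Among 15 further subunits and accessory proteins of the proton pump, none was 2-fold higher or lower on any day. Of all genes, 8.13%, 9.01% and 9.60% were higher and 5.30%, 6.42% and 6.52% lower on days 3, 6 and 9. On day 3, 12 of the 15 were below day 0, as were 7085 of the 12859 genes tested. The median log2 ratio of the 15 was -0.39, -0.25 and -0.12, and that of all genes was -0.08, -0.08 and -0.09. Of 22 further lysosomal hydrolases, 3, 3 and 5 were 2-fold higher on days 3, 6 and 9 while 2, 3 and 2 were lower, with medians of -0.03, 0.01 and 0.11. As shares these are 13.6%, 13.6% and 22.7% higher, against 8.13%, 9.01% and 9.60% of all genes, and 9.09%, 13.6% and 9.09% lower, against 5.30%, 6.42% and 6.52%. MANBA, beta-mannosidase, had 1.51, 7.93, 9.36 and 10.1 FPKM, and FUCA1, alpha-fucosidase, had 7.39, 19.1, 22.9 and 26.4 FPKM. ACP2, the lysosomal acid phosphatase, took the opposite direction with 23.8, 8.07, 6.92 and 5.81 FPKM, at log2 ratios of -1.45, -1.65 and -1.87.

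Of 14 further membrane proteins, 1, 3 and 3 were 2-fold higher on days 3, 6 and 9, with medians of -0.17, 0.02 and -0.06, and 1 was lower on days 3 and 9. The shares higher were 7.14%, 21.4% and 21.4%, against 8.13%, 9.01% and 9.60% of all genes. The share lower was 7.14% on days 3 and 9, against 5.30% and 6.52% of all genes. CD68, a heavily glycosylated lysosomal protein abundant in macrophages, had 16.2, 37.5, 65.1 and 90.6 FPKM, at log2 ratios of 1.16, 1.94 and 2.41, larger on days 6 and 9 than that of any member but CTSF on day 6. Beside it, the summed level of the 11 osteoclast and macrophage markers was 2.64, 6.83, 6.85 and 8.82 FPKM, and the part of such cells in the CD68 values was not tested. TPCN1, an endolysosomal cation channel, had 7.06, 14.3, 22.6 and 21.5 FPKM, and LAMP3, a LAMP protein of restricted expression, had 0.946, 2.83, 2.98 and 4.30 FPKM.

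Of 8 genes of mannose 6-phosphate sorting, 1 (12.5%) was 2-fold lower on days 6 and 9, against 6.42% and 6.52% of all genes. This was NAGPA, the enzyme that uncovers the tag which GNPTAB starts. It had 5.94, 2.59, 2.17 and 1.55 FPKM at ratios of -0.95, -1.13 and -1.44. It went opposite to GNPTAB. Among 25 genes of autophagy initiation and LC3 conjugation, none was 2-fold higher on any day and only ATG4D, a protease that processes LC3 proteins, was 2-fold lower, on day 3, with 16.7, 6.80, 8.20 and 9.11 FPKM. Of all genes, 8.13%, 9.01% and 9.60% were higher on days 3, 6 and 9. On day 3, 5.30% of all genes were lower, against 4% of this list. The list's median stayed between -0.08 and -0.02. Of 12 other LC3 proteins and receptors, 1 was 2-fold higher on days 3 and 6 and 2 on day 9. As shares these are 8.33%, 8.33% and 16.7%, against 8.13%, 9.01% and 9.60% of all genes. BNIP3, a mitophagy receptor, had 44.2, 143, 123 and 127 FPKM, and OPTN, optineurin, had 45.4, 66.7, 89.8 and 101 FPKM, higher in each library than in the one before.

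In the list of MiT/TFE factors and regulators of the growth kinase complex mTORC1, 16 of 17 genes reached 1 FPKM. On day 9 only, 1 of them (6.25%) was 2-fold higher, against 9.60% of all genes. This was RRAGD, a Rag GTPase that recruits mTORC1 to the lysosome, with 1.23, 1.75, 2.62 and 3.77 FPKM. Among the cystatins, inhibitors of cysteine cathepsins, 3 of 4 reached 1 FPKM. Their median log2 ratio was 0.08, 0.10 and 0.33 on days 3, 6 and 9, and their lowest was -0.17, -0.08 and 0.05. On days 6 and 9, 1 of the 3 (33.3%) was 2-fold higher, against 9.01% and 9.60% of all genes. CST3, cystatin C, had 125, 249, 271 and 317 FPKM at log2 ratios of 0.99, 1.10 and 1.33, just short of the limit on day 3 and past it on days 6 and 9.

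**Figure D5:**
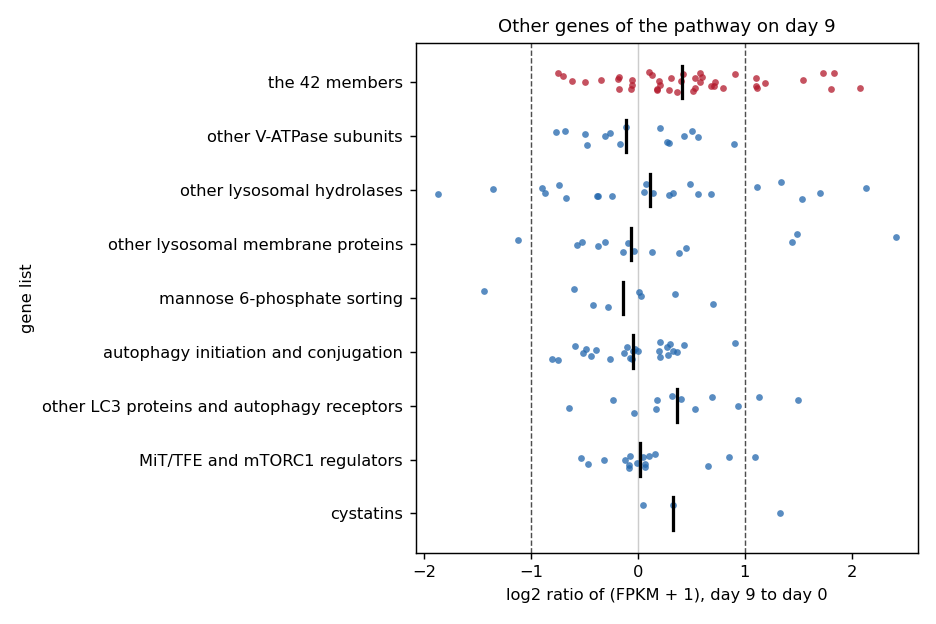
Points are single genes that reached 1 FPKM and their position the log2 ratio of FPKM + 1 of day 9 to day 0 (1 library each), for the 42 members in red and 8 further lists in blue, with a black bar at each median and dashed lines at 2-fold. The members' median is 0.41, that of the other proton pump subunits -0.12 and that of autophagy initiation and conjugation -0.05, and CD68 is the point farthest to the right.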

How the data were processed

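The 4 libraries, 1 per day, were matched to columns by the day in the sample titles. Ribosomal RNA was depleted and a directional kit was used. RNase R, which degrades linear RNA, is described for the mRNA libraries; its effect on the values was not tested. The authors deposited FPKM per transcript for 79798 protein-coding transcripts. They aligned reads with TopHat, while the program behind the FPKM is not given in the sources used here, and the genome build that the submitters' notes name is a mouse build although symbols and identifiers are human. The 9 comparison tables of the authors (fold changes, p-values and q-values), the circRNA tables and the lncRNA tables were not used.

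FPKM were summed per symbol, each member having 1 gene ID, 1 was added, and log2 ratios were taken between libraries. With 1 library per day, no test was made, and limits of 2-fold and 1.5-fold with at least 1 FPKM in any library took its place. Members and lists (11 further lists, 141 genes) were chosen with earlier results of these data known. Named in full were members past 2-fold and the most abundant of each role, and, of each further list, up to 3 genes past 2-fold against day 0. Others (CD14, SLC26A1, MAP1LC3B2, the genes of the last section) were named after their values were seen. The rule was run on simulated data with an assumed noise, in which 200 genes, none of low FPKM, were changed well past 2-fold. Finding them was set by construction. The run therefore says nothing of the noise between the real libraries or of genes at low FPKM. Python 3.11.15, pandas 2.3.3, numpy 2.4.6 and matplotlib 3.10.9 were used.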

Additional observations from a re-analysis of the deposited data

How the results depend on the processing

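No paired analysis was possible because each day has 1 library. With 0.1 FPKM added, 1 member was 2-fold lower on day 3 (CTSK) and 1 on day 6 (CTSO), and 1 was higher on day 6 against day 3 (CTSS), all under 5 FPKM. In this setting 14.3%, 19.0% and 21.4% of members were 2-fold higher on days 3, 6 and 9. Of all genes it was 12.0%, 12.6% and 12.8%, so the members lay nearer to all genes than with 1 FPKM added, most closely on day 3. At a 1.5-fold limit, looser by construction, 3 members were lower on each of days 3, 6 and 9, 12 and 15 were higher on days 6 and 9, and 4 were higher and 1 lower on day 6 against day 3. The other alternatives, among them no minimum, 1 FPKM in every library, libraries rescaled to a median ratio of 0, the leading transcript alone and a mean of at least 10 FPKM (added after seeing the data), kept every count within 1.5 times. Rescaling moved GAA to 1.07 and 1.0 on days 6 and 9 and CTSL to 1.04 on day 3. By the leading transcript alone, ARSA had 0.84 on day 3, and PSAP and SQSTM1 had 0.87 and 0.98 on day 9. The same setting brought LAMP2 past 2-fold on days 3, 6 and 9 and CTSC on day 3, so that near-equal counts held partly different genes. GAA reached 1.02 on day 6 with 0.1 FPKM added. With a mean of at least 10 FPKM, 8 of 35 members (22.9%) were 2-fold higher on day 9, against 8.63% of 7748 genes. No ratio past 2-fold changed sign.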

Other observations

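SQSTM1 is also known as a target of the oxidative stress factor NRF2, so 5 other NRF2 targets were read out after its values had been seen. HMOX1, heme oxygenase, had 7.39, 7.0, 11.2 and 18.1 FPKM on days 0, 3, 6 and 9, at log2 ratios to day 0 of -0.07, 0.54 and 1.19; as for SQSTM1, the day 0 and day 3 values lay close together. GCLM, a subunit of glutamate-cysteine ligase, had 11.8, 8.79, 11.8 and 16.0 FPKM. NQO1 had 76.7, 64.3, 72.2 and 69.9 FPKM, TXNRD1 had 131, 100.1, 110 and 138 FPKM and SRXN1 had 15.4, 12.4, 13.8 and 13.5 FPKM, with day 9 ratios of -0.13, 0.08 and -0.18. Of these 5 genes, HMOX1 alone passed 2-fold on any day. GPNMB, a glycoprotein often raised in cells with lysosomal stress, had 13.4, 9.40, 12.2 and 15.5 FPKM and stayed within 1.5-fold of day 0 in each later library.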
